A study of Mus musculus with 15 samples.

Results

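PIWI-interacting RNAs (piRNAs) are small RNAs of the germ line that guide PIWI proteins to transposon transcripts and, in the fetal testis, to transposon DNA for methylation. Long precursor transcripts are unwound and cut on mitochondria and in perinuclear granules, loaded onto PIWI proteins, and amplified in a cycle that needs Tudor-domain scaffold proteins. Several genes of the pathway have CpG-rich promoters that are methylated in somatic tissues, and DNMT1 is the enzyme that copies CpG methylation onto new DNA strands. 10 genes of the pathway were followed here, chosen by name: Piwil1, Piwil2 and Piwil4, which encode the PIWI proteins; Mov10l1, which encodes the RNA helicase that feeds precursors into the pathway; Asz1 (also called Gasz) and Tdrkh, which encode scaffolds on the mitochondrial surface; Tdrd1 and Tdrd9, which encode Tudor-domain proteins; Mael, which encodes Maelstrom; and Ddx4, which encodes the germ-cell helicase Vasa. They are 10 of the 46517 genes in the count tables, and 1246 of the 4944536 cytosine positions in the methylation files lay in or within 2 kb of them.

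The mice were of strain C57BL/6. Control kidneys were taken at postnatal day 0 (P0) from mice with floxed Dnmt1 alleles and no Cre (Dnmt1 f/f), and knockout (KO) kidneys at P0 from mice that carried the same alleles and a Cre recombinase under Six2, a gene of nephron progenitors (Six2Cre Dnmt1 f/f). Adult kidneys came from wild-type mice at 6 weeks, so adults and controls differed in the floxed alleles as well as in age. Reduced representation bisulfite sequencing (RRBS), which reads cytosine methylation in CpG-rich restriction fragments, covered 3 samples of each of the 3 groups, and poly(A) RNA sequencing covered 3 control and 3 KO samples. The source label names Six2+ cells, but the extraction text names DNA from the entire organ. Genes of cells outside the Six2 lineage, such as Pecam1 and Cdh5 of endothelium and Col1a1 of stroma, had at least 2904 counts in every RNA library, so the values are described as kidney values. In such bulk samples, fewer cells of a type and less RNA or DNA methylation per cell cannot be told apart.

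Gene counts per library ran from 26773937 to 34102567, and methylation calls per RRBS sample from 18424875 in KO 3 to 88765177 in control 2. Dnmt1 itself was at 180.0, 156 and 188 CPM (counts scaled to a common library total) in the controls and at 110, 111 and 93.7 CPM in the KO samples (log2 fold change -0.74, standard error (SE) 0.12, adjusted p = 0.00577 with edgeR). All KO libraries lay below all controls and kept part of the transcript. Control 3 stood apart from the other controls in RNA: without it, 2512 genes in place of 1153 were called higher in KO. KO 3 was the shallowest RRBS sample, with a median of 4 calls per position. All 4 podocyte markers fell in KO, 4 of 5 tubule markers fell and 1 rose, and of 8 nephron progenitor markers 2 rose and 2 fell. Of genes of other cells, Pecam1 and Cdh5 fell (log2 fold changes of -0.73 and -0.75, 2 of 3 endothelium markers), while Foxd1 of stroma rose by 1.63 and Ptprc of leukocytes by 0.79 on the log2 scale, each 1 of 3 in its list. The part of these marker changes in the results below was not tested.

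The promoter letters show what the methylation values below refer to. RefSeq (GRCm38.p6) gave a window of 300 bases, 250 before the start and 50 after it, for 9 of the 10 genes. Asz1, Mael and Ddx4 were chosen because their starts were methylated in control kidney and their RNA rose in KO, and Tdrkh because its start was not methylated. Capitals mark the CpGs with at least 5 calls in all 9 RRBS samples. The windows are chr6:18109012-18109311 on the minus strand for Asz1, chr1:166238695-166238994 on the minus strand for Mael, chr13:112652261-112652560 on the minus strand for Ddx4 and chr3:94412994-94413293 on the plus strand for Tdrkh.
Asz1: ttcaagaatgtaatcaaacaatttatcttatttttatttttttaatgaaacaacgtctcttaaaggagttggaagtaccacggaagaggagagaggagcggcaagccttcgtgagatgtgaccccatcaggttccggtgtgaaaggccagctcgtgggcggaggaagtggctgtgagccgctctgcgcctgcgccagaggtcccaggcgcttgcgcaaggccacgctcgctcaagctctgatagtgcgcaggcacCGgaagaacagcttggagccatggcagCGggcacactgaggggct
Mael: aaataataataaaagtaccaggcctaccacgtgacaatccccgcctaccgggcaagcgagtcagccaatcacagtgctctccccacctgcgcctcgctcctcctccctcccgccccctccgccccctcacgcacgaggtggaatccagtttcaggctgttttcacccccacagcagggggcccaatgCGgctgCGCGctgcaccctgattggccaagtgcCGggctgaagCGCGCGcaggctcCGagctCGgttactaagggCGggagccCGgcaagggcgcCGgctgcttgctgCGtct
Ddx4: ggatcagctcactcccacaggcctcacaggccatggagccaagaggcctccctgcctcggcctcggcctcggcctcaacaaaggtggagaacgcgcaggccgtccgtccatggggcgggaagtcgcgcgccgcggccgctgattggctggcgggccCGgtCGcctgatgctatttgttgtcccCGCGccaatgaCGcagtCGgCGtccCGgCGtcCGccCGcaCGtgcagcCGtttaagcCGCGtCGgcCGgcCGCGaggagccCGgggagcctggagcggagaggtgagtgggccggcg
Tdrkh: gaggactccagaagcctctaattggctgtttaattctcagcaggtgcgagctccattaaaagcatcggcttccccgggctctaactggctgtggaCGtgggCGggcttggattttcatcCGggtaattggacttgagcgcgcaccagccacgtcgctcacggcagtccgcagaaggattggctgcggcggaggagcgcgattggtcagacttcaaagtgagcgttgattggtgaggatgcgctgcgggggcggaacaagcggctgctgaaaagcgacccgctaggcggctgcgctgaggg
The windows held 17 CpGs in Asz1, 24 in Mael, 38 in Ddx4 and 25 in Tdrkh. Over the 9 windows the median was 20 CpGs, against a median of 7 over all 32619 promoter windows. RRBS measured 20 of the CpGs in Ddx4, 13 in Mael, 3 in Tdrkh and 2 in Asz1.

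The E-box CACGTG, a site whose centre is a CpG, was searched on both strands because it lies in 6 of the 9 windows, against 7.20% of all promoter windows and 10.9% of the 14272 windows with at least 10 CpGs. The choice of this motif was made with the promoters known, so the counts are a description. The matches, in capitals, each begin at the stated distance from the annotated start, on the gene's strand. They lie at chr1:166238952-166238977 in Mael, chr13:112652324-112652349 in Ddx4, chr15:88982744-88982763 in Mov10l1, chr19:56826188-56826213 in Tdrd1, chr12:111971454-111971479 in Tdrd9 and chr5:128736082-128736107 in Piwil1, of which Piwil1 and Tdrd9 hold a second match that is not printed.
Mael at -223: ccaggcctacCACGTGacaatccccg
Ddx4 at -29: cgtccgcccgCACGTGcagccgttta
Mov10l1 at -246: ccttCACGTGctaaccgcca
Tdrd1 at -11: gggctgcgcgCACGTGggagtaaact
Tdrd9 at -95: acgaggctccCACGTGcatgcagggc
Piwil1 at -154: cagggcccagCACGTGtccacctcgc
The other motif searched, GCGGGAA on both strands, was in Ddx4 alone among the 9, against 4.63% of all windows. Only in Ddx4 was the CpG of the E-box itself measured with at least 5 calls in all 9 samples, and its values are given with the start windows below.

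RNA of the helicase, of a mitochondrial scaffold, of Maelstrom, of 1 PIWI gene and of Vasa rose in KO kidney. Of the 10 genes, 8 passed the filter on low counts, and 5 of these were called higher in KO (Mov10l1, Asz1, Mael, Piwil2 and Ddx4; edgeR, adjusted p under 0.05) and 0 lower (0 at an unadjusted p under 0.05, and 0 with DESeq2). The median log2 fold change of the 8 was 2.55, also with Mov10l1 at its bound. Over all 18132 genes tested, 6.36% were called higher and 8.23% lower. The filter asks for about 10 counts in at least 3 libraries. Mov10l1, Asz1, Mael and Piwil2 met it only through the KO libraries, so the filter itself fixed a difference for these 4. The share of called genes and the median are thus a description. In a fit with no filter on low counts all 10 genes were tested and 5 were called higher, against 4.60% of 30538 genes. Without control 3 the count remained 5. Because no exon lengths were used, levels are compared between samples and not between genes.

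Mov10l1 had 0 counts in each control and 171, 182 and 196 counts in the KO libraries, or 5.33, 5.97 and 7.45 CPM. Every KO library lay above every control, and the KO level was at least 206.9-fold higher, with 3 counts over the 3 controls taken as the limit (edgeR adjusted p = 0.000222). MOV10L1 binds piRNA precursors and is needed for the loading of all PIWI proteins in the mouse testis. Asz1 had 1, 0 and 1 counts in the controls and 78, 92 and 102 in KO. The ratio of the group levels was 153.7, with a counting interval at 95% from 42.2 to 1276, and the edgeR adjusted p was 0.000197. The intervals of these low-count genes cover counting error only.

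Mael had 0, 0 and 2 counts in the controls and 28, 30 and 49 in KO, a ratio of 60.5 with a counting interval from 16.3 to 505.9 (edgeR adjusted p = 0.00234). Piwil2, the PIWI gene of fetal and dividing male germ cells, had 17, 4 and 26 counts in the controls and 94, 123 and 123 in KO. Its levels were 0.518, 0.129 and 0.707 CPM against 2.93, 4.03 and 4.67 CPM, a log2 fold change of 3.07 (SE 0.51, edgeR adjusted p = 0.0056). Ddx4 went from 11, 15 and 24 counts to 70, 39 and 68, a log2 fold change of 2.02 (SE 0.40, edgeR adjusted p = 0.0123). In all 3 of these genes the groups did not overlap. The share of all tested genes with this pattern is not given here, and Mael and Piwil2 met the filter only through the KO libraries. The call of Ddx4 was lost without control 1 (adjusted p = 0.0502), without KO 1 (adjusted p = 0.0577) or without KO 3 (adjusted p = 0.055).

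The other 5 genes were not called. Tdrd1, whose protein binds PIWIL2 through Tudor domains, had 1.80, 1.33 and 1.20 CPM in the controls and 2.03, 2.23 and 2.96 CPM in KO. All KO libraries lay above all controls, but the log2 fold change of 0.74 (SE 0.30) did not pass the edgeR test, with an adjusted p of 0.15. Tdrd9, an RNA helicase with a Tudor domain that acts with PIWIL4, had 21, 19 and 62 control counts and 35, 23 and 30 KO counts, with a log2 fold change of 0.01 (SE 0.46, edgeR adjusted p = 0.991). Control 3 held the highest Tdrd9 value, and the groups overlapped.

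Tdrkh, which was already expressed in control kidney with 372, 284 and 390 counts, was at 11.3, 9.19 and 10.6 CPM in the controls and at 8.44, 15.6 and 15.3 CPM in KO. The difference was 0.34 on the log2 scale (SE 0.25; adjusted p = 0.453 by edgeR), and KO 1 lay below all controls. Piwil4, the PIWI gene that acts in the nucleus, had 1, 2 and 6 control counts and 15, 9 and 7 KO counts. Piwil1, the PIWI gene of meiotic and later male germ cells, had 3, 0 and 0 control counts and 2, 3 and 2 KO counts, a ratio of 2.64 with a counting interval from 0.602 to 15.8. Piwil4 and Piwil1 did not pass the filter; the KO libraries were above the controls for Piwil4 and overlapped them for Piwil1.

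**Figure D1:**
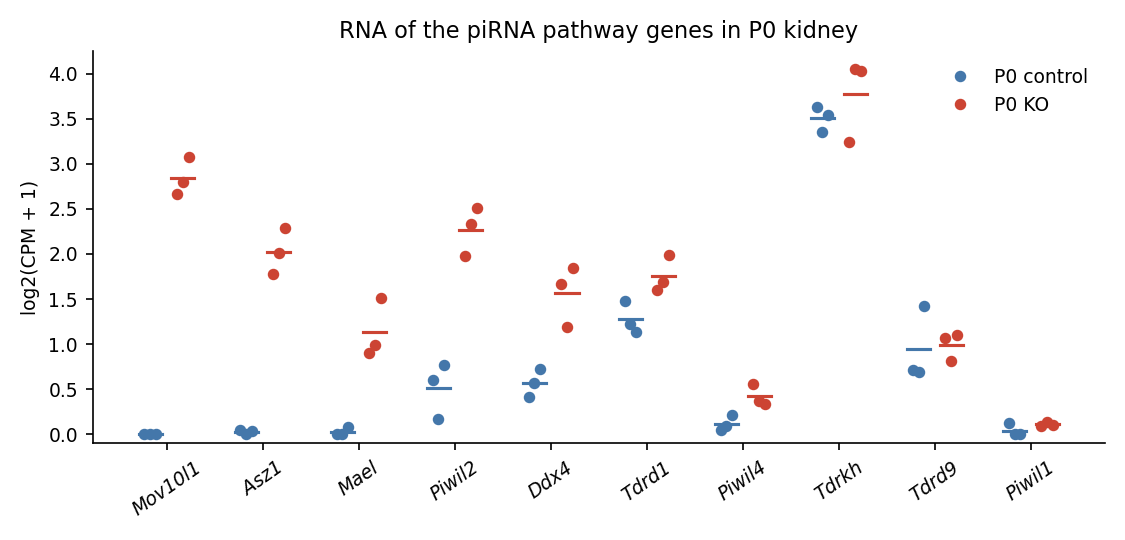
RNA level of each gene in every library, as log2(CPM + 1) on the vertical axis; points are samples (blue, P0 control; red, P0 KO) and bars are group means of 3. Mov10l1, Asz1 and Mael sit at or near 0 in the controls, and KO and control points are apart for these genes and for Piwil2, Ddx4, Tdrd1 and Piwil4.

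Most calls in the wider pathway were higher in KO. Of 22 other genes of the piRNA pathway, 21 were in the count tables, 14 were tested, 6 were called higher and 1 lower. Over all genes tested, 6.36% were called higher and 8.23% lower, so 1 lower call of 14 is near that share. The median log2 fold change of the 14 tested genes was 1.45, against -0.00074 over all genes tested. Tex19.1, Fkbp6, Gpat2, Stk31 and Rnf17, all called higher, and Morc1, not called, again passed the filter only through the KO libraries. The filter itself fixed a difference for these genes, so the share of calls and the median are a description. Tex19.1, a gene of transposon control in germ cells and placenta, had 0, 1 and 0 counts in the controls and 354, 319 and 352 in KO, a ratio of 1159 with a counting interval from 207.5 to 45810. Fkbp6, which encodes a co-chaperone of piRNA amplification, had 0 counts in each control and 75, 83 and 86 in KO, at least 91.9-fold higher. Gpat2, which encodes a mitochondrial acyltransferase that binds PIWIL2, had 11, 10 and 58 control counts and 800, 792 and 890 KO counts (log2 fold change 5.20, SE 0.56, edgeR adjusted p = 0.000837). Tex19.1, Fkbp6 and Gpat2 had every KO library above every control, a pattern whose share over all tested genes is not given here.

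Stk31 (log2 fold change 3.59, SE 0.66), Rnf17 (2.36, SE 0.49) and Tex15 (2.09, SE 0.42) were the other genes called higher. Stk31 and Rnf17 encode further Tudor-domain proteins, and TEX15 acts in piRNA-directed DNA methylation. Rnf17 and Tex15 each lost the call when single libraries were left out: Rnf17 without KO 2 (edgeR adjusted p = 0.0532) or KO 3 (0.0582), and Tex15 without control 1 (0.0551) or KO 1 (0.0574). Tdrd5, another Tudor-domain gene, fell, from 103, 126 and 288 counts to 47, 42 and 33 (log2 fold change -1.87, SE 0.38, edgeR adjusted p = 0.0131). Its call was lost without any 1 of the KO libraries, with adjusted p from 0.0564 to 0.0608. Among the tested genes that did not pass, Tdrd7 (log2 fold change -0.13), Mybl1 (0.66), Pnldc1 (0.81) and Pld6 (-0.21) are named because they had the most counts, which is no comparison of transcript levels between genes. Mybl1, which encodes a transcription factor that drives many piRNA genes in meiosis, had 168, 205 and 341 control counts and 378, 304 and 303 KO counts, with an edgeR adjusted p of 0.115. Without control 3 its edgeR adjusted p was 0.00773 and that of Pnldc1 was 0.0323, and 9 of the other pathway genes were then called higher. The number of all genes called higher also rose without control 3, as given above.

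Relatives and partners with roles outside the germ line showed no call. Of 15 such genes, all tested, edgeR called 0, DESeq2 called 0 and 1 had an unadjusted p under 0.05, with a median log2 fold change of 0.01. Over all genes tested, edgeR called 6.36% higher and 8.23% lower. At that background 0 calls among 15 genes says nothing particular about them. The 4 with the most counts were Ddx3x, a helicase gene related to Ddx4, with a log2 fold change of -0.09 (SE 0.21), Snd1, a Tudor-domain nuclease gene, with -0.14 (SE 0.18), Tsn, which encodes translin, with -0.09 (SE 0.19), and Ago1, an Argonaute gene of the microRNA pathway, with -0.01 (SE 0.11). Their edgeR adjusted p ran from 0.683 to 0.978, and the groups overlapped for each. Whether these genes and the piRNA genes differ as lists was not tested.

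**Figure D2:**
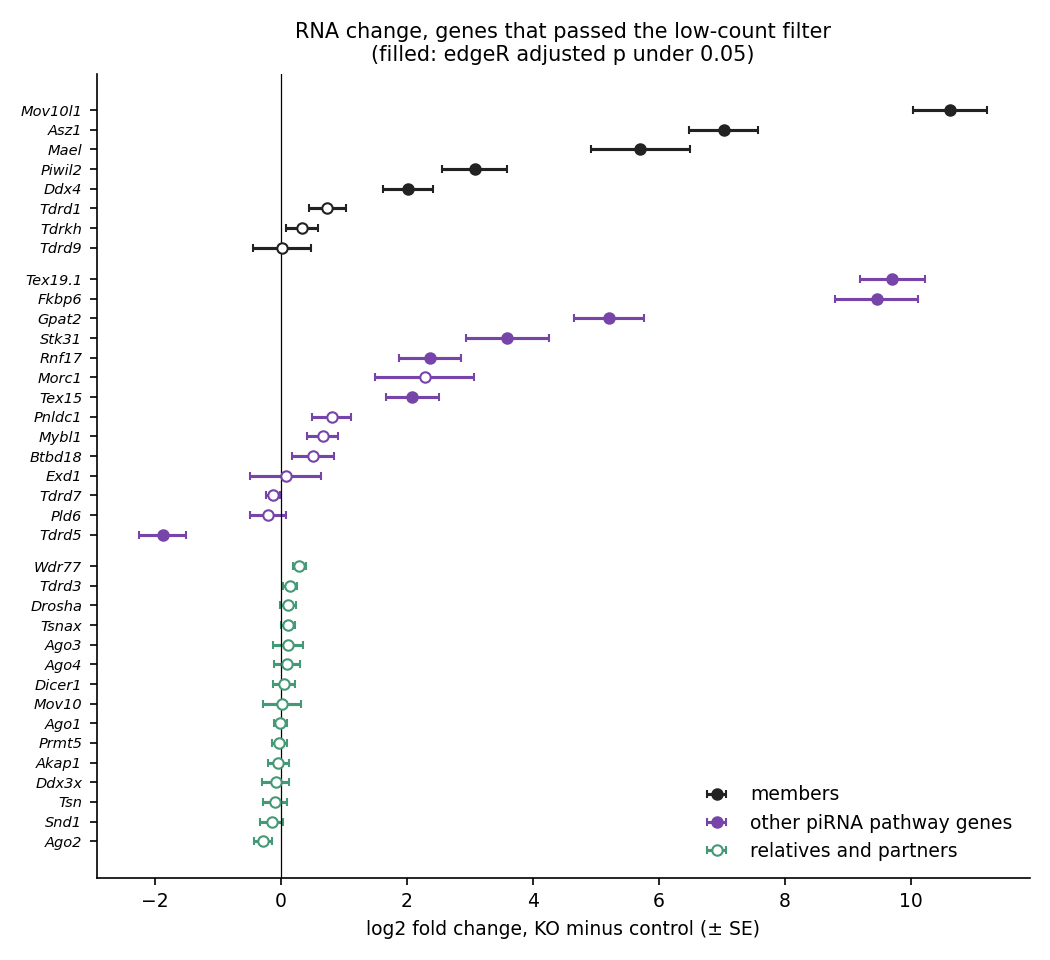
Log2 fold change of KO against control (horizontal axis, with SE) for the tested genes among the 10 members, the other piRNA pathway genes and the relatives and partners; filled points passed the edgeR test. The values of Mov10l1 and Fkbp6, with 0 counts in all controls, depend on the prior count of the fit. All 15 relatives and partners are open points near 0.

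Markers of germ cells were followed because a few germ cells could carry piRNA genes into a kidney sample. Of 14 markers, 6 were tested and 2 rose: Dazl, from 0, 5 and 4 counts to 2060, 1780 and 2532, and Stra8, from 0 in each control to 28, 32 and 22. Over all genes tested, 6.36% were called higher and 8.23% lower. The summed level of the list was 4.02 to 6.33 CPM in the controls and 65.2 to 103 CPM in KO. Dazl alone made up 58.4 to 96.2 CPM of the KO sums, and the other 13 markers summed to 4.02 to 6.22 CPM in the controls and 6.85 to 7.07 CPM in KO. Dppa3 was at 0 in all 6 libraries, Pou5f1 had 1 count in control 3 and 0 in the other libraries, and Prdm14, Prm2 and Tnp1 had at most 2 counts in any library. The other 4 tested markers were not called by edgeR. Dnd1 had a log2 fold change of 0.85 (adjusted p = 0.126), with every KO library above every control, and Nanos3, Sycp3 and Acr had log2 fold changes of -0.09, -0.09 and -0.19, with adjusted p of 0.888, 0.901 and 0.841. Of 9 markers of gonadal somatic cells, 3 were tested, 0 were called by edgeR or DESeq2 and 1 had an unadjusted p under 0.05. Foxl2 and Fshr were at 0 in every library, and the list summed to 8.90 to 15.0 CPM in the controls and 7.97 to 9.88 CPM in KO.

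The nearest annotated gene on each side of the 10 genes was read from the same tables. Of these 20 neighbours 16 were tested, and edgeR called 0 higher, against 6.36% of all genes tested. At that background 0 of 16 says nothing particular about the neighbours. At an unadjusted p under 0.05, 3 had a higher level, and DESeq2 called 2 of them higher (Gpa33 next to Mael and Vwa2 next to Tdrd1). Ildr2 next to Mael, and Atp5mpl and Aspg on either side of Tdrd9, were called lower, against 8.23% of all genes tested. Mlc1, whose nearer annotated edge is 198 bases from Mov10l1, had 0, 0 and 1 control counts and 7, 8 and 5 KO counts and was not tested. Piwil2, Piwil4, Tdrd9, Tdrkh and Mov10l1 overlap other annotated genes, and the strand setting of the counting is not given in the sources used here, so reads of overlapping genes on opposite strands cannot be told apart.

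Methylation in and within 2 kb of the genes was lower in KO. Each listed position is 1 cytosine of 1 strand, and a region was tested where at least 3 positions had 10 or more calls in all 9 samples. 8 of the 10 regions were tested, and 7 were lower in KO at an adjusted p under 0.05 (quasi-binomial model over all regions), against 57.6% of 22680 regions. The share among these genes is thus set beside a background in which most regions lost methylation. In all 10 genes every KO sample lay below every control, as in 68.1% of all regions. With at least 5 calls, all 10 regions were tested and 10 were lower, against 58.7% of 27103 regions.

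Piwil1 and Piwil2 had the largest losses among the tested regions. At Piwil1, at chr5:128736071-128755474, methylation over 3 positions was 99.2%, 89.2% and 100% in the controls and 48.2%, 47.6% and 55.6% in KO, a difference of -45.7 points (adjusted p = 0.000123). These positions lie 7721, 7736 and 7760 bases after the start, inside the gene, and the RNA of Piwil1 was not called. At Piwil2 (chr14:70372477-70436898) 11 positions fell from 88.0%, 85.3% and 93.5% to 61.6%, 53.3% and 64.3% (adjusted p = 1.92e-06). Neither gene had a position with 5 calls in all samples within 1 kb of its start, and neither did Piwil4.

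Mov10l1 (chr15:88982891-89055152, 12 positions) went from 92.4% ± 3.0 (SD, n = 3) to 72.9% ± 2.5, and Tdrd1 (chr19:56826171-56870012, 9 positions) from 81.1% ± 1.2 to 60.7% ± 6.7. Tdrd9 (chr12:111971488-112068854, 22 positions) went from 75.2% ± 1.6 to 58.8% ± 2.6, Piwil4 (chr9:14701776-14740672, 12 positions) from 71.5% ± 2.5 to 56.6% ± 2.4, and Mael (chr1:166201385-166238744, 13 positions) from 90.6% ± 2.6 to 80.5% ± 2.6. All 5 passed the test, with adjusted p from 1.08e-05 to 0.00193. Ddx4 (chr13:112598333-112652633, 5 positions) went from 85.6% ± 1.1 to 75.4% ± 7.2 and did not pass (adjusted p = 0.154). With at least 5 calls Ddx4 had 36 positions, went from 87.5% to 77.4% and passed (adjusted p = 0.00777).

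Asz1 (chr6:18050964-18109061) and Tdrkh (chr3:94413243-94434854) had too few positions with 10 calls for the region test. With at least 5 calls Asz1 had 8 positions, at 96.7%, 93.2% and 94.9% in the controls and 60.2%, 85.3% and 50.3% in KO (adjusted p = 0.000165). Over these 8 positions KO 2 had the highest KO value. Over the 2 positions with at least 10 calls the KO samples were alike, at 70.9%, 69.3% and 72.5%. The 7 positions of Tdrkh were at 32.1%, 28.3% and 32.1% in the controls and 9.6%, 20.7% and 27.3% in KO (adjusted p = 0.00941).

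The size of the loss was not the same at all genes. Over the 6341 regions with a control mean of at least 70%, the median difference was -22.4 points, with quartiles of -26.7 and -18.6. Piwil2, at -29.2 points, and Piwil1 lost more than the lower quartile. Mael at -10.1 points, Ddx4 at -10.2, Piwil4 at -14.9 and Tdrd9 at -16.4 lost less than the upper quartile, and Mov10l1 at -19.5 and Tdrd1 at -20.4 lay between the quartiles. The 5 genes whose RNA rose were spread over this range. Mael and Ddx4 had smaller losses than most methylated regions, Mov10l1 lay between the quartiles and Piwil2 lost more than most. Asz1, over 2 positions and not tested, had a difference of -26.3 points. The positions do not cover like parts of these genes. Those of Mael, Ddx4 and Asz1 all lie within 1 kb of the start, and none of Piwil2 does. In Mov10l1 only 2 of 12 do, with a difference of -39.4 points. Whether the size of the loss goes with the RNA change was not tested. The choice of positions bears on the size: with at least 5 calls the differences were -16.4 points for Mael, -19.1 for Piwil4 and -10.2 for Tdrd9.

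**Figure D3:**
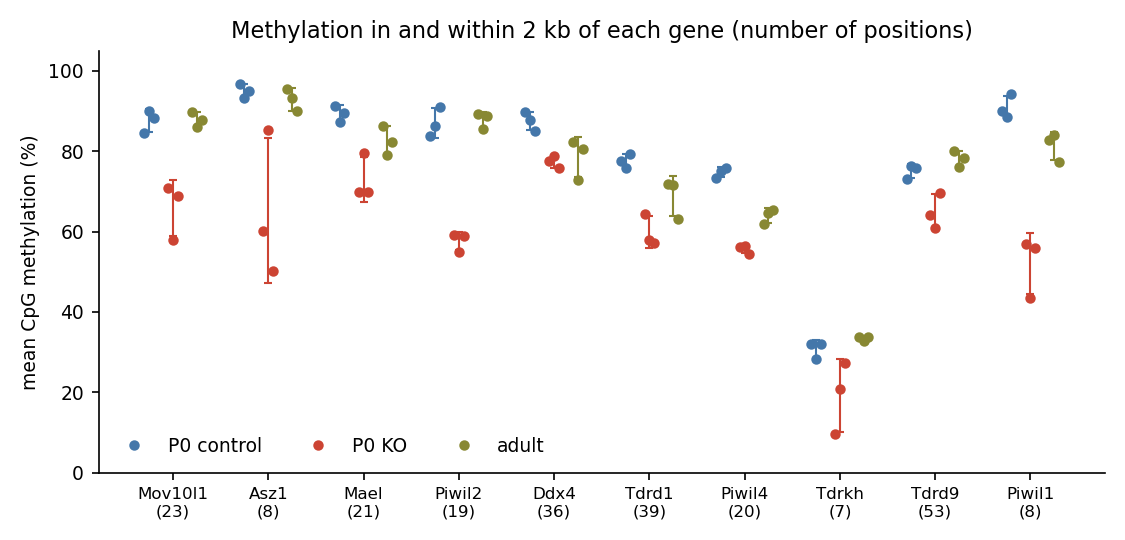
Mean CpG methylation (vertical axis, percent) in and within 2 kb of each gene over positions that reached 5 calls in each of the 9 samples, whose number stands under each gene; points are samples, and bars span the group mean ± 1 SD (n = 3). KO points (red) lie below control points (blue) in all 10 genes, and adult points (olive) lie near the controls for Mov10l1, Asz1, Piwil2 and Tdrkh.

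Single positions were tested in the same way. Of 96 positions with at least 10 calls in the 6 P0 samples, 40 were lower in KO by at least 10 points at an adjusted p under 0.05 and 0 were higher (1 at an unadjusted p), against 35.2% lower and 0.127% higher of all 380162 positions. At that background no higher call among 96 positions says nothing particular about these genes. All 3 tested positions of Piwil1 and both of Asz1 were called lower, as were 8 of 13 in Piwil2, 6 of 12 in Mov10l1, 5 of 9 in Tdrd1, 9 of 22 in Tdrd9, 4 of 13 in Mael, 2 of 12 in Piwil4, 1 of 4 in Tdrkh and 0 of 6 in Ddx4. The position differences ran from -62.2 to 11.4 points, both in Tdrd1. Positions a few bases apart share fragments and are not independent.

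Start windows, of 1 kb on each side of the annotated start, held positions for 7 genes. With at least 10 calls only Mael and Ddx4 could be tested, and Mael was lower, against 13.2% of 13430 start windows. For these 2 genes the window holds the same positions as the gene region, so it adds no separate result. With at least 5 calls 7 windows were tested and 6 were lower (Asz1, Mael, Ddx4, Mov10l1, Tdrd1 and Tdrd9), against 15.4% of 18710 windows. These 6 starts were methylated in the controls, at means from 75.1% to 97.0%, while most start windows of the genome were not: 1610 of the 13430 had a control mean of at least 70%. Over those 1610 windows the median difference was -22.2 points.

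The Asz1 start is an example with depth. The position 5 bases after the start, in the printed window, had methylation of 95.7%, 93.5% and 100% in the controls and 71.0%, 75.5% and 70% in KO, and the position 32 bases after it 100%, 95.5% and 98.2% against 70.8%, 63.2% and 75%. Both were called lower, and each of the 9 samples had at least 30 calls there. The Asz1 window over 7 positions went from 97.0% ± 2.4 to 66.3% ± 18.3. At Mov10l1 the positions 446 and 456 bases after the start went from 94.9%, 98.4% and 85.5% to 63.6%, 51.3% and 62.5%, and from 90.2%, 94.8% and 93.2% to 70.2%, 41.9% and 31.2%. No position before the Mov10l1 start had 5 calls in all 9 samples within 1 kb.

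The Mael window, with 21 positions, went from 89.4% ± 2.0 to 73.0% ± 5.6, the Ddx4 window, with 36, from 87.5% ± 2.3 to 77.4% ± 1.6, and the Tdrd1 window, with 27, from 75.1% ± 2.6 to 59.3% ± 4.4. Tdrd9 had 4 positions near its start, at 89.7%, 95.2% and 88.0% in the controls and 53.6%, 72.3% and 96.4% in KO. KO 3, with 27 calls in that window, lay above the controls. Tdrd1 and Tdrd9 had lower start methylation by the test, and neither was called in RNA. For Tdrd1 every KO library was nonetheless above every control in RNA, with a log2 fold change of 0.74 (SE 0.30). A link between the 2 measures was not tested.

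Tdrkh differed from the other 6 starts. Its 5 positions were at 11.1%, 0% and 5.7% in the controls, 0%, 3.5% and 4.0% in KO and 8.0%, 5.9% and 10% in adults, and the test gave no call (adjusted p = 0.994). The RNA of Tdrkh was present in all control libraries, at a mean of 10.4 CPM. Tdrd1, Tdrd9 and Ddx4, whose starts were methylated, had control means of 1.44, 0.98 and 0.49 CPM. These levels are not corrected for transcript length, and a link between start methylation and RNA was not tested. The 1 Tdrkh position with 10 calls in all 9 samples, at chr3:94436419 in the flank past the gene end, was at 87.0%, 100% and 95.8% in the controls and at 39.1%, 71.8% and 71.4% in KO.

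The CpG of the Ddx4 E-box was measured on both strands, with 5 to 30 calls, too few for the position test. The strand read at -27 had 80.0%, 85.0% and 66.7% in the controls, 53.3%, 43.8% and 44.4% in KO and 77.8%, 15.0% and 48.0% in adults. The opposite strand at -26 had 40%, 62.5% and 60% in the controls, 70%, 81.8% and 42.9% in KO and 83.3%, 50% and 63.3% in adults. KO was below control on 1 strand and overlapped it on the other, and adults overlapped the controls on both.

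**Figure D4:**
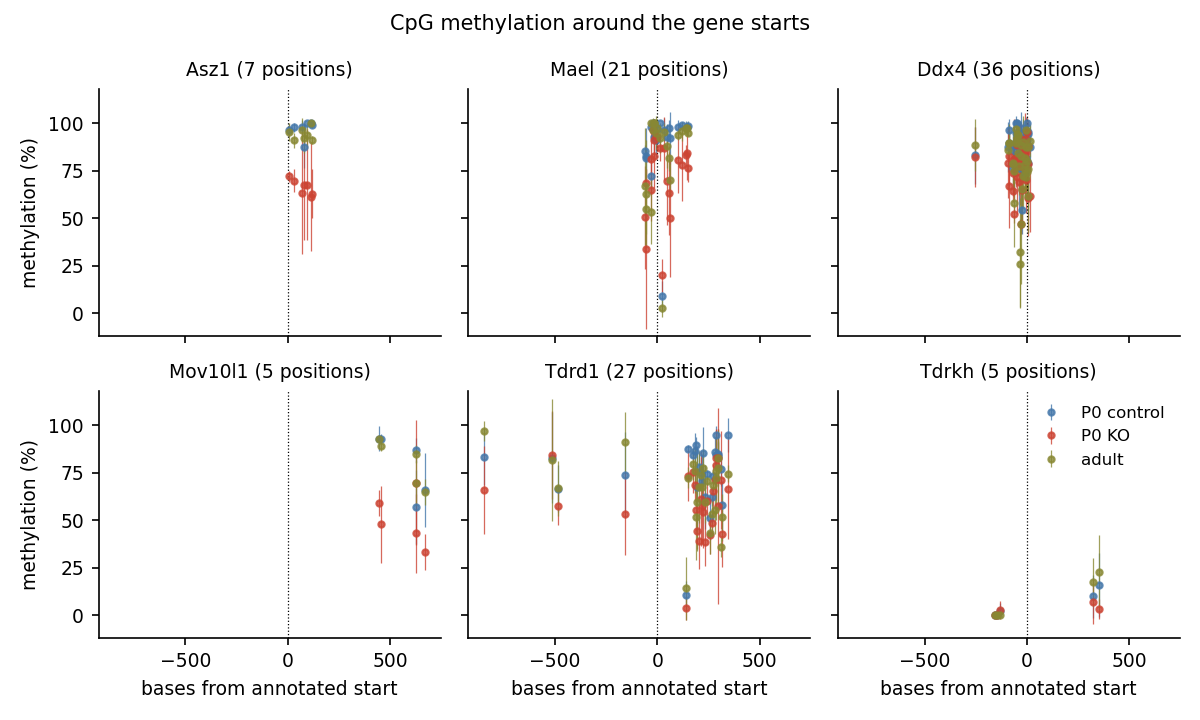
Methylation (vertical axis, percent; group mean ± 1 SD, n = 3) of each position that reached 5 calls in each of the 9 samples against its distance in bases from the annotated start (dotted line). Asz1, Mael, Ddx4 and Tdrd1 are methylated near the start in the controls (blue) and lower in KO (red) at most positions, Mov10l1 has positions only after its start, and Tdrkh is near 0 before its start in all groups.

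Adult kidney was compared with P0 control kidney, and both methylation comparisons use the same 3 controls. Age, the floxed alleles and the mix of cells cannot be told apart in this comparison. 3 of the 8 tested regions were lower in adults (Tdrd1, Piwil1 and Piwil4), against 16.0% of all regions, and 0 were higher (0 at an unadjusted p under 0.05), against 8.32%. Tdrd1 was at 82.3%, 80.0% and 81.0% in the controls and 61.6%, 72.3% and 69.0% in adults (adjusted p = 0.0304). Piwil4 was at 68.9%, 73.9% and 71.8% against 57.7%, 58.8% and 58.6% (adjusted p = 0.00405), and Piwil1 at 99.2%, 89.2% and 100% against 82.6%, 84.7% and 72.5% (adjusted p = 0.0349). In these 3 genes all adults lay below all controls, and the share of all regions with this pattern is not given here. The calls of Tdrd1 and Piwil1 were lost when single samples were left out, for example adult 3 (adjusted p of 0.0821 and 0.204). Adult RNA was not analysed here.

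In Tdrd1, 3 neighbouring positions with at least 22 calls in every sample, 2418, 2444 and 2467 bases after the start, were far lower in adults. At 2418 bases the controls had 81.1%, 68.4% and 80.6%, KO 54.8%, 45.5% and 90.9%, and adults 33.3%, 35.1% and 41.7%. At 2444 bases the controls had 100%, 80.7% and 77.8% and adults 21.6%, 47.4% and 45.0%. These positions had 22 to 88 calls per sample, and adults were below all controls at each. At the other 6 positions of the Tdrd1 region with 10 calls, adult and control means differed by -4.19 to 5.03 points, so the 3 positions carried the difference of the region.

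With at least 5 calls 4 regions were lower in adults, against 17.8% of regions: the same 3 genes and Ddx4, from 87.5% ± 2.3 to 78.6% ± 5.0 (adjusted p = 0.024). All Ddx4 positions lie near its start, and its start window was the 1 called lower in adults of 7, against 8.55% of start windows. The lowest adult values were at -34 and -35, the 2 strands of 1 CpG. The CpG between it and the E-box, at -30 and -31, had adult means of 83.0% and 88.3%, against control means of 94.9% and 77.0%. At -34 the controls had 100%, 90.9% and 85.7%, KO 100%, 77.8% and 57.1%, and adults 0%, 45.0% and 33.3%. The Mov10l1, Asz1, Piwil2, Tdrd9 and Tdrkh regions were not called, with adult means of 87.9%, 92.9%, 87.8%, 78.2% and 33.4% against control means of 87.6%, 94.9%, 87.1%, 75.1% and 30.8%. Mael was at 82.6% in adults against 89.4% (adjusted p = 0.0507).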

How the data were processed

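Kidney samples of 3 groups were measured by RRBS (9 samples) and of 2 groups by poly(A) RNA-seq (6 samples). The deposited RNA files hold raw read counts per gene; STAR 2.4.1d, HTSeq 0.6.1, Trim Galore and Bismark, and build mm10/GRCm38, are named per the submitters' processing notes. The deposited RRBS files hold a methylation percent and the counts of methylated and unmethylated calls per cytosine. Positions in RefSeq promoter windows fell on a CpG for 75915 of 75916, which checks the build. The members and gene lists were chosen with earlier results of these data known. Whether the 3 samples of a group came from separate animals is not stated, so p-values measure the spread between these samples.

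Counts were tested with edgeR 4.0.16 (quasi-likelihood test, TMM, filterByExpr, Benjamini-Hochberg adjustment, threshold 0.05) over all genes, without the lines of unassigned reads, which made up 22.9% to 35.8% of a library. Reads with more than 1 alignment, in those lines, were 14.0% to 24.6% in controls and 22.5% to 28.0% in KO. Symbols came from a gene name table (46005 of 46517 matched). CPM used TMM-scaled libraries. Methylation was tested on call counts with a quasi-binomial model whose dispersion was moderated across all regions, start windows or positions, in Python 3.11.15 with scipy 1.17.1; printed means weight positions equally. Both were tested on simulated data: 97.1% of genes changed 4-fold (log2 of 2; 105 genes), 30.5% of 2-fold (log2 of 1; 95 genes) among 18193, and 84.0% of regions lowered by 20 points among 22680 were recovered. Named genes were all 10 members and, from each other list, up to 6 that passed, by p, and up to 4 tested genes that did not, by mean CPM; from the marker lists of kidney cell types only counts and a few called genes are given, and markers named at or near 0 and Col1a1 were named to check the tissue. Alternatives were another scaling, DESeq2 1.42.0, other filters and call minimums, a replicate block and leaving out each sample. With counts near 0, RNA precision is limited by counting; with 3 samples a group, an exact permutation test could not go below 0.1, so none is given.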

Additional observations from a re-analysis of the deposited data

How the results depend on the processing

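The 5 higher member calls numbered 5 with RLE size factors, library size alone, no filter, DESeq2 and the replicate block, 4 at the stricter threshold of 0.01 and 1 where every sample had to reach 10 counts, a filter that by construction removes genes near 0 in controls; leaving out single samples gave 4 to 5. The other pathway genes called higher numbered 2 under that filter and 5 to 9 leaving out single samples; the 1 lower call became 0 at the threshold of 0.01 and ran from 0 to 1 leaving out single samples. All genes called higher numbered 678 under that filter, 528 at the threshold of 0.01 and 647 to 2512 leaving out single samples; genes lower numbered 681 at the threshold of 0.01 and 701 to 2561 leaving out single samples. Without a filter the log2 fold change of Tdrd9 was -0.013. Leaving out single samples, that of Tdrd9 ran from -0.23 (without control 1 or 2) to 0.66 (without control 3), and that of Exd1 from -0.26 (without control 1) to 0.93 (without control 3).

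Member regions lower in KO numbered 7 with every sample left out in turn and under the replicate block, and all regions lower numbered 7610 with at least 20 calls. Adult regions lower numbered 1 under the replicate block and 1 to 3 leaving out single samples (1 without control 1 or adult 3). Start windows lower numbered 6 in KO and 1 in adults with at least 5 calls. Member positions lower numbered 19 with at least 20 calls, 24 under the replicate block, 25 at a difference of 25 points and 33 to 39 leaving out single samples; all positions lower numbered 69190, 71564 and 83977 under the same 3 settings and 87700 to 122470 leaving out single samples. In adults the Tdrd9 region difference was -6.0 points with at least 20 calls, and that of Mov10l1 ran from -1.87 to 1.17 leaving out single samples and was 0.27 with at least 5 calls and 0.43 with at least 20. Other causes of these changes were not tested. No sign of pairing by sample number was seen: same-numbered RNA libraries deviated with correlations of -0.28, -0.10 and -0.15, and RRBS samples near 0. With so few samples a group, these correlations cannot show that the samples were unpaired.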

Other observations

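The genes outside the lists whose levels were most like the mean log2(CPM + 1) of the 8 tested members over the 6 RNA libraries were En2 (Pearson r of 0.999), Ntng1, Mgl2, Gm11544 and Lmx1a. The 6 libraries fall into 2 groups, so this likeness is mostly the step between them, and 54 genes had r above 0.99. En2 and Lmx1a encode homeobox transcription factors best known from the developing brain. En2 had 15, 9 and 21 counts in the controls and 64, 67 and 81 in KO, and Lmx1a had 1, 1 and 2 against 59, 68 and 96. Mgl2, a lectin gene of macrophages and dendritic cells, had 4, 5 and 15 against 64, 82 and 95.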
